A study of Mus musculus with 18 samples.

Results

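The lysosomal proton pump, the cathepsins and the lysosome-associated membrane glycoproteins were followed in mouse brain during repeated intranasal exposure to urban dust. The genes were taken by symbol: all subunits of the vacuolar ATPase (Atp6v0 and Atp6v1 names), its accessory proteins (Atp6ap1 and Atp6ap2 names), every cathepsin (Cts and 1 letter), Lamp1 and Lamp2. Of 23238 gene symbols counted, 46 had such a name, and the 34 with at least 10 counts in 9 or more of the 18 libraries are described here. They comprised 10 genes of the V1 sector, 7 of the V0 sector, 3 accessory genes, 2 aspartic or serine cathepsins, 9 cysteine cathepsins, 2 LAMP genes and 1 pseudogene. The other 12 symbols fell under that minimum: Atp6v0a4, Atp6v0d2, Atp6v1b1, Atp6v1e2, Atp6v1g3, Ctse, Ctsg, Ctsj, Ctsm, Ctsq, Ctsr and Ctsw. Just inside the minimum stood Ctsk, with 10 counts in 12 libraries (median count 13), and just outside it Atp6v0a4, with 10 counts in 2 (median 2.5).

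Male C57BL/6 mice, 7 weeks old at the start, were given urban particulate matter (UPM, the reference dust SRM 1648a) suspended in phosphate-buffered saline, or the saline alone, into the nose. Short-term UPM mice were dosed every day for 3, 5 or 7 days, and long-term UPM mice 2 times per week for 3, 8, 12, 16 or 20 weeks. Each library is a pool of RNA from several mice of 1 group, and hippocampus and cortex each have 1 saline control library, 3 short-term and 5 long-term ones. The time at which the control was taken is not given in the sources used here. A time had no replicate, and libraries of different times stand in for replicates of a class, so the p-values measure the spread between these pools and not between mice.

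Libraries held 5.43 to 8.97 M counts, and the 34 genes took 0.594% to 0.695% of them. In the file headers the 3-, 5- and 7-day and 3-week libraries (8 in all) carry names of one style, and the control and 8- to 20-week ones (10) names of another style. They are called the early and the late set here, and the controls count with the late one. The ribosomal precursor Rn45s held 14.8% to 18.6% of the counts of early libraries and 7.75% to 12.9% of those of late ones. Any comparison of short-term with control, or of 8 to 20 weeks with 3 to 7 days, therefore compares the sets too, and exposure and set cannot be told apart there. The tissue labels fitted their markers: all 7 hippocampal neuron markers were higher in hippocampus and 6 of 7 cortical ones lower. Markers of the neighbouring striatum were lower in hippocampus, 5 of the 5 tested. Their sums were uneven between cortical libraries, with 184 to 1080 CPM at 3 to 7 days and 175 to 880 CPM at 8 to 20 weeks. The part of this unevenness in the results was not tested.

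The vacuolar ATPase is a rotary pump. Its V1 sector in the cytosol hydrolyses ATP, and its membrane-bound V0 sector carries protons into the lumen of lysosomes, endosomes, secretory granules and synaptic vesicles, where the proton gradient also loads neurotransmitter. Cathepsins are the proteases that work in the acid lumen, and LAMP proteins line the lysosomal membrane. Many of these genes carry in their promoters the CLEAR element, bound by the transcription factor TFEB and its relatives.

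Promoter sequence was available for 25 of the 34 genes, as 250 bases before to 50 bases after the annotated start (RefSeq, GRCm38.p6, the assembly of mm10). The palindrome TCACGTGA, the inner 8 letters of the CLEAR element, was found in 5 of the 25 (20%). Among all 27025 genes with promoter windows of that length, 1.12% had it in any window. GTCACGTG, which overlaps it, was found on either strand in 5 (20%) against 2.55%, and the E-box CACGTG, contained in both, in 9 (36%) against 8.09%. None of the 25 genes held the palindrome with a G before and a C after it, against 0.37% of all genes with a window. The 5 windows with the palindrome are shown in the direction of their gene, with the palindrome in capitals, to show which pump and protease genes carry it. Each of the 5 genes passed the comparison of 8 to 20 weeks with 3 to 7 days, which also compares the library sets. Atp6v0d1, Atp6v0e, Atp6v1a and Ctsd were lower there and Ctsa higher. Of the 34 genes 15 were lower and 2 higher, and 32.6% of all 13842 genes passed. Whether the palindrome goes with these differences was not tested. A match describes these letters and is not a measured binding site.
Atp6v0d1 (chr8:105566025-105566104, minus strand, palindrome beginning 4 bases before the start and reaching past it): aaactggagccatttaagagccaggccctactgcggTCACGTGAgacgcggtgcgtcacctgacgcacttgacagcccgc
Atp6v0e (chr17:26676362-26676441, plus strand, 2 bases after the start): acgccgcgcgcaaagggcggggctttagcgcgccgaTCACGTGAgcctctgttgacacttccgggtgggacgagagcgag
Atp6v1a (chr16:44139348-44139427, minus strand, 132 bases before the start): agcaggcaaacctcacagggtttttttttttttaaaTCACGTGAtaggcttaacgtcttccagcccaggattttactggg
Ctsa (chr2:164833724-164833820, plus strand, 2 palindromes, the outer one 13 bases before the start): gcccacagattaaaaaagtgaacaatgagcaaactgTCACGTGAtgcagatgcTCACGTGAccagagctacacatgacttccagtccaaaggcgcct
Ctsd (chr7:142387883-142387962, minus strand, 99 bases before the start): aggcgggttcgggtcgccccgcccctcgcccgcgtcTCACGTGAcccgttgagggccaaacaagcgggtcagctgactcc

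Levels are given as TMM-scaled CPM (counts of a gene relative to the library's total), and differences as log2 fold changes ± SE from the quasi-likelihood F test of edgeR, with Benjamini-Hochberg adjustment over all genes tested and a threshold of 0.05. At 8 to 20 weeks, compared with 3 to 7 days in both tissues, 15 of the 34 genes were lower and 2 higher. The subunits of the V1 sector and both LAMP genes made up 8 of the 15. Among all 13842 genes tested, 16.9% were lower and 15.7% higher, so the lower calls exceeded their background share and the higher calls did not. The median log2 fold change was -0.27 over the 34 genes and 0.003 over all genes.

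**Figure D1:**
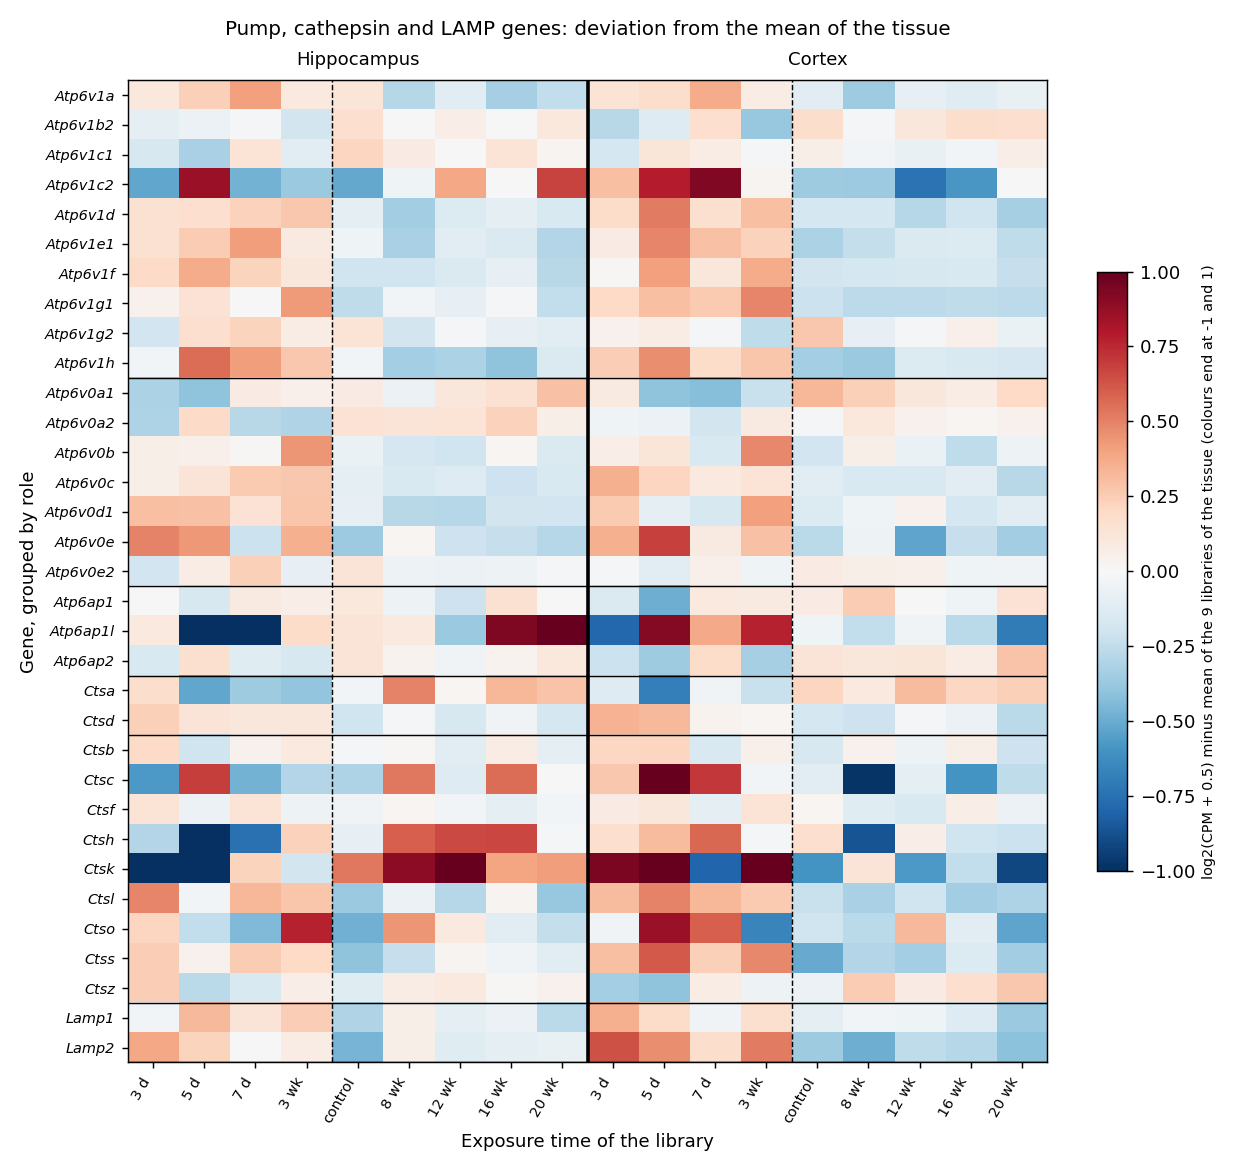
Heatmap of 33 genes (rows, grouped by role; the pseudogene is left out) in the 18 libraries (columns, early set left and late set right of the dashed line in each tissue). Colour is the log2 of CPM + 0.5 minus the mean of the 9 libraries of the tissue, ending at -1 and 1. The rows of Atp6v1d, Atp6v1e1 and Atp6v1f are red left and blue right of the dashed line in both tissues.

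In the V1 sector 6 of 10 genes were lower at 8 to 20 weeks and none was higher. Atp6v1e1, a subunit of the peripheral stalks that hold the motor still (chr6:120794305-120822793), gave in hippocampus 447, 478 and 536 CPM at 3, 5 and 7 days and 320.3, 371, 363 and 328 CPM at 8, 12, 16 and 20 weeks. In cortex it gave 548, 725 and 635 CPM, then 440.1, 469, 469.9 and 433 CPM. The early and late values did not overlap in either tissue, and the log2 fold change was -0.51 ± 0.07 (edgeR adjusted p = 5.08e-05). The cortical 3-week library, at 606 CPM, stood among the 3- to 7-day ones. The hippocampal one, at 427 CPM, lay under those of its tissue and above its 8- to 20-week ones. The saline controls, at 389.9 CPM in hippocampus and 417 CPM in cortex, stood under all 3- to 7-day values. The hippocampal control also lay above all 8- to 20-week values of its tissue, and the cortical control under them.

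Atp6v1a, the catalytic subunit that hydrolyses ATP (chr16:44085402-44139705), had 949, 1043 and 1177 CPM at 3, 5 and 7 days in hippocampus and 725, 821, 703 and 745 CPM at 8 to 20 weeks. In cortex it had 921, 947 and 1083 CPM, then 654, 791, 771 and 796 CPM. The difference was -0.45 ± 0.08 (edgeR adjusted p = 0.000202). The hippocampal control, at 964 CPM, lay among the 3- to 7-day values, and the cortical control, at 778 CPM, among the late ones. Its non-catalytic partner Atp6v1b2 did not follow: it had 399.7 to 421.5 CPM at 3 to 7 days and 423 to 457 CPM at 8 to 20 weeks in hippocampus, and 400.0 to 543 and 479 to 546 CPM in cortex (0.12 ± 0.07, edgeR adjusted p = 0.21).

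Atp6v1d, an axle subunit of the rotor, had 525.5, 531 and 553 CPM in hippocampus at 3, 5 and 7 days and 371, 429, 442 and 425 CPM at 8 to 20 weeks. Cortex showed 642, 809 and 629 CPM, then 500.2, 462, 491 and 449 CPM. This was again a separation without overlap in both tissues (-0.47 ± 0.08, edgeR adjusted p = 0.000131). Atp6v1f, the other axle subunit, went from 385, 436 and 395 CPM to 295, 305, 319 and 279 CPM in hippocampus, and from 369, 485 and 395 CPM to 323, 327.5, 329 and 312 CPM in cortex (-0.41 ± 0.07, edgeR adjusted p = 0.00024). Atp6v1h, a regulatory subunit that links the sectors' stalks, showed the largest V1 difference to pass (-0.59 ± 0.09, edgeR adjusted p = 8.45e-05). It had 78.8, 119 and 108 CPM, then 63.6, 64.4, 60.8 and 72.7 CPM in hippocampus, where the control had 79.0 CPM. The cortical values were 121, 140.4 and 116 CPM, then 78.4, 92.6, 91.6 and 90.4 CPM, and 80.2 CPM in the control.

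Atp6v1g1, the widely expressed form of the stalk subunit G, had 76.8, 82.6 and 74.9 CPM in hippocampus at 3 to 7 days and 73.1, 70.4, 73.9 and 62.9 CPM at 8 to 20 weeks, a narrow gap. In cortex the gap was wide, from 108, 116 and 112 CPM to 77.8, 77.8, 78.2 and 77.95 CPM (both tissues -0.36 ± 0.08, edgeR adjusted p = 0.00177). The neuronal form Atp6v1g2 had 296 to 394 CPM at 3 to 7 days and 296 to 334 CPM at 8 to 20 weeks over both tissues (-0.13 ± 0.07, edgeR adjusted p = 0.182). Atp6v1c1, which clamps the stalks and leaves the complex when the sectors come apart, had 0.05 ± 0.08, and the sparse Atp6v1c2 had 0.956 to 4.14 CPM over all libraries.

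In the V0 sector 3 of 7 genes were lower and 1 higher at 8 to 20 weeks. Atp6v0c, the proteolipid that forms most of the proton-carrying ring (chr17:24163866-24169702), had 407, 427 and 469 CPM in hippocampus at 3, 5 and 7 days and 351.5, 357, 338 and 350.2 CPM at 8 to 20 weeks. Cortex showed 546, 495 and 458 CPM, then 384, 383, 397 and 352 CPM (-0.37 ± 0.07, edgeR adjusted p = 0.000288). The processed pseudogene Atp6v0c-ps2 on chromosome 6 carried the same count as Atp6v0c in 11 of 18 libraries and differed by at most 6 counts in the others. Such a pair may hold the same reads, so the 15 lower genes hold 14 separate measurements, although counts over the 34 genes include both. The pseudogene is not described further.

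Atp6v0d1, which couples the rotor to the ring, was lower in hippocampus without overlap (126, 125 and 113 CPM, then 84.1, 83.6, 89.55 and 89.4 CPM). In cortex the values overlapped (131, 102 and 98.1 CPM, then 107, 113, 97.0 and 102 CPM), and the fit over both tissues gave -0.30 ± 0.09 (edgeR adjusted p = 0.017). Atp6v0e, a small membrane subunit, had 49.6, 47.4 and 30.2 CPM, then 35.5, 30.3, 29.8 and 28.7 CPM in hippocampus. In cortex it had 37.3, 47.15 and 31.0 CPM, then 28.1, 20.1, 24.7 and 22.8 CPM (-0.58 ± 0.13, edgeR adjusted p = 0.00212). The 7-day value sat within the late range in hippocampus and above it in cortex. Its paralog Atp6v0e2, the form typical of brain, had 200.2 to 269 CPM in those libraries of both tissues (-0.04 ± 0.07).

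The subunit that went the other way was Atp6v0a1, the form of the proton-path subunit found on synaptic vesicles and neuronal lysosomes (chr11:101009452-101063719). It had 209, 197 and 275 CPM in hippocampus at 3, 5 and 7 days and 250.2, 282, 290.2 and 319 CPM at 8 to 20 weeks. Cortical levels were 276, 196 and 193 CPM, then 305, 280.0, 272 and 298 CPM. The groups overlapped in both tissues, and the difference was 0.34 ± 0.10 (edgeR adjusted p = 0.0109). It did not pass without the 5-day libraries (adjusted p = 0.0773), which held the lowest value in hippocampus and the lowest but 1 in cortex. The Golgi form Atp6v0a2 had 0.19 ± 0.09 (edgeR adjusted p = 0.119) and Atp6v0b, another ring proteolipid, -0.14 ± 0.07 (0.146). None of the 3 accessory genes passed, all with small positive values: Atp6ap1, which stabilizes V0, 0.11 ± 0.10, Atp6ap2, the (pro)renin receptor needed for pump assembly, 0.15 ± 0.09, and Atp6ap1l 0.10 ± 0.39.

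**Figure D2:**
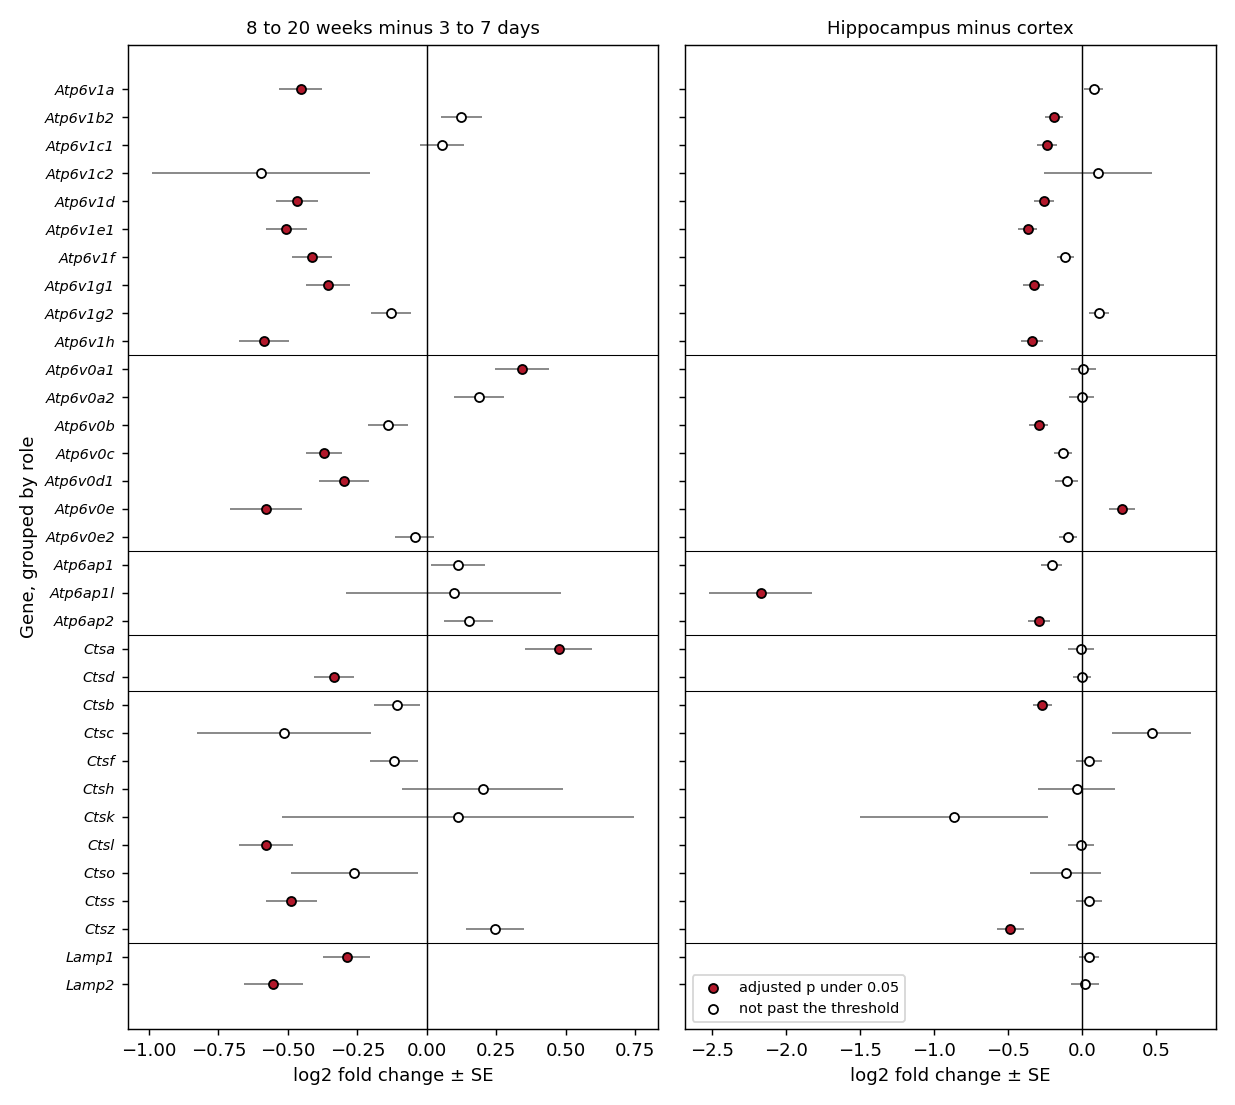
Log2 fold change (points) with its SE (bars) for 33 genes grouped by role, at 8 to 20 weeks against 3 to 7 days on the left and in hippocampus against cortex on the right; filled points passed the threshold. On the left 14 points are filled and negative, and 2, Atp6v0a1 and Ctsa, filled and positive.

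Among the cathepsins, Ctsd, the main aspartic protease of the lysosome (chr7:142375911-142388038), had 252, 234 and 231.5 CPM in hippocampus at 3 to 7 days and 211, 191.5, 208 and 189 CPM at 8 to 20 weeks. In cortex it had 272, 268 and 219 CPM, then 185, 211, 205 and 177 CPM, with no overlap in either tissue (-0.33 ± 0.07, edgeR adjusted p = 0.00171). Ctsl, a cysteine endopeptidase, had 75.3, 52.5 and 67.8 CPM, then 51.5, 43.9, 54.8 and 41.1 CPM in hippocampus, where the 5-day value lay within the late range. The cortical libraries gave 67.4, 76.5 and 68.1 CPM, then 43.1, 47.2, 42.5 and 43.55 CPM (-0.58 ± 0.10, edgeR adjusted p = 0.000158).

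Ctss, in brain chiefly a protease of microglia (chr3:95526786-95556403), had 98.8, 85.4 and 99.3 CPM in hippocampus at 3 to 7 days and 70.6, 84.45, 81.2 and 77.3 CPM at 8 to 20 weeks. In cortex it had 98.9, 123 and 94.7 CPM, then 65.3, 63.3, 73.0 and 63.0 CPM (-0.49 ± 0.09, edgeR adjusted p = 0.00053). The controls had 62.7 and 56.5 CPM, the lowest value of each tissue. Fewer cells of a type and less RNA per cell cannot be told apart in such bulk samples.

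Ctsa, the carboxypeptidase that protects β-galactosidase and neuraminidase (chr2:164832873-164841032), stood higher at 8 to 20 weeks. It had 60.2, 36.9 and 41.5 CPM, then 75.1, 53.9, 67.1 and 65.0 CPM in hippocampus, and 48.7, 33.15 and 52.2 CPM, then 57.1, 66.5, 61.65 and 63.3 CPM in cortex (0.47 ± 0.12, edgeR adjusted p = 0.00544). The values overlapped in hippocampus and not in cortex. Ctsz, a carboxypeptidase of the papain family, was at 0.24 ± 0.10 (edgeR adjusted p = 0.0826). The abundant Ctsb was at -0.11 ± 0.08 (edgeR adjusted p = 0.343). Ctsc, Ctsf, Ctsh, Ctsk and Ctso did not pass either (log2 fold changes -0.51, -0.12, 0.20, 0.11 and -0.26).

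Lamp2, whose isoforms include the receptor of chaperone-mediated autophagy (chrX:38401357-38456454), had 83.75, 74.7 and 64.2 CPM in hippocampus at 3 to 7 days and 66.7, 58.8, 59.7 and 60.8 CPM at 8 to 20 weeks. Cortex gave 98.2, 87.4 and 71.1 CPM, then 44.9, 52.7, 51.7 and 47.3 CPM (-0.55 ± 0.11, edgeR adjusted p = 0.00063). The 7-day value overlapped the late range in hippocampus, and cortex had no overlap. Lamp1 had 244, 312 and 272 CPM, then 259, 233, 239 and 207 CPM in hippocampus, and 309, 275 and 236 CPM, then 237, 235, 221 and 187 CPM in cortex (-0.29 ± 0.09, edgeR adjusted p = 0.0141). The Lamp1 values overlapped in both tissues, and the gene did not pass without the 5-day libraries or on total counts alone.

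The 15 lower calls went with the library set more fully than the 2 higher ones. Ctsa had both 3-week libraries under every 8- to 20-week library of their tissue, and Atp6v0a1 did not. Hippocampal Atp6v0a1 at 3 weeks, at 269.7 CPM, lay within its 8- to 20-week range of 250.2 to 319.2 CPM. Both controls stood above every 3- to 7-day library of their tissue for Atp6v0a1 and not for Ctsa. For all 15 lower genes both 3-week libraries, which are long-term by label, stood above every 8- to 20-week library of their tissue (over the 34 genes 16 did so, against 19.8% of all genes, and 3 stood under, against 19.6%). Both controls stood under every 3- to 7-day library of their tissue for 14 of the 34, against 13.3% of all genes, and above for 2, against 16.1%. Of the 15 lower genes Atp6v0d1, Atp6v1a and Atp6v1h were not among the 14. All 4 early libraries were above all 5 late ones in each tissue for 8 of the 34 genes (23.5%; Atp6v0c with its pseudogene, Atp6v1d, Atp6v1e1, Atp6v1f, Atp6v1g1, Ctsd and Ctss) against 5.33% of all genes, and below for 0 against 5.18%. Other transcripts moved between the same libraries. The nuclear RNAs Meg3, Miat, Snhg11, Malat1 and Neat1 were higher at 8 to 20 weeks, by 1.81 to 2.62 on the log2 scale, and Rn45s was lower (-0.85 ± 0.12, edgeR adjusted p = 4.24e-05). Red-cell genes were lower for 4 of 5, with sums of 867 to 1670 CPM in hippocampus and 1030 to 2780 CPM in cortex at 3 to 7 days and 639 to 1190 and 625 to 1060 CPM at 8 to 20 weeks. Of 15 microglia markers 6 were lower (Aif1, C1qa, C1qb, C1qc, Fcrls and Tyrobp) and 1 higher (Csf1r), and their sum was 401 to 431 and 402 to 458 CPM in hippocampus and 422 to 568 and 382 to 396 CPM in cortex. Of 8 astrocyte markers 4 were lower. The part of these in the results was not tested.

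The scaling decided some members. On total counts alone the median of all genes rose to 0.19, and 8 of the 34 were then higher and 11 lower, against 27.5% and 7.91% of all genes (35.4% in all). Atp6v0c with its pseudogene, Atp6v0e, Atp6v1a, Atp6v1d, Atp6v1e1, Atp6v1f, Atp6v1h, Ctsl, Ctss and Lamp2 passed as lower there too, while Atp6v0d1, Atp6v1g1, Ctsd and Lamp1 no longer passed. Atp6ap1, Atp6ap2, Atp6v0a2, Atp6v1b2, Atp6v1c1 and Ctsz became higher.

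Other lysosomal genes went both ways. Of 50 genes of lysosomal enzymes, transporters and membrane proteins outside the members, 8 were higher at 8 to 20 weeks and 4 lower, with a median of 0.01. Of all genes 15.7% were higher and 16.9% lower, so the higher count was near its background share and the lower count under it. Higher were Clcn7, the lysosomal chloride-proton exchanger (0.78 ± 0.15), Mcoln1, its cation channel (1.06 ± 0.23), Npc1, which exports cholesterol (0.50 ± 0.10), the proton leak channel Tmem175 (0.55 ± 0.11), and the enzymes Arsa, Lipa, Manba and Naglu. Among the lower were the small luminal carriers Npc2 (-0.46 ± 0.10) and Psap (-0.34 ± 0.07), and Laptm4a (-0.46 ± 0.08), all edgeR values past the threshold. Of 23 regulators of the pump, 7 were lower: Lamtor1, Lamtor2, Lamtor4, Lamtor5 and Rraga, which tether mTORC1 to the lysosome, the assembly factor Vma21, and Tmem9. The kinase gene Mtor was higher (0.79 ± 0.11, edgeR adjusted p = 3e-05). Among inhibitors of cathepsins 3 of 5 were lower, led by the secreted cystatin C gene Cst3 (-0.92 ± 0.11, edgeR adjusted p = 6.8e-06), which had 1890 to 2047 CPM in hippocampus at 3 to 7 days and 1102 to 1260 CPM at 8 to 20 weeks. Of 6 genes of mannose-6-phosphate sorting, Gnptg alone passed (0.56 ± 0.10).

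Against the saline controls, short-term UPM gave 2 calls among the 34, both higher, where 4.35% of 14209 genes passed, 1.84% higher and 2.51% lower. Ctss was 0.73 ± 0.17 higher (edgeR adjusted p = 0.0246) and Lamp2, with 46.1 and 49.3 CPM in the hippocampal and cortical controls, 0.73 ± 0.18 higher (edgeR adjusted p = 0.0361). Every short-term library of both genes lay above the control of its tissue. Each call was lost when either control library was left out and on total counts alone. The Lamp2 call was also lost without the hippocampal 3-day library, the cortical 3-day or 5-day library, or both 5-day libraries, and held in 10 of 17 alternatives, against 14 for Ctss. DESeq2 added Atp6v1e1, Atp6v1f and Ctsl, where it called 9.17% of genes. This contrast also compares the library sets, and 14 of 15 microglia markers had positive values, of which none passed. With the labels' whole long-term class against short-term, none of the 34 passed in hippocampus, where 0.273% of 13908 genes did (0.209% higher, 0.0647% lower). In cortex 0.0% of 13762 genes passed with edgeR, with 2921 genes and 17 of the 34 at an unadjusted p under 0.05. DESeq2 called 4 of the 34 in hippocampus (Ctsh higher, Atp6v1a, Atp6v1e1 and Atp6v1f lower; 8.33% of genes) and 2 in cortex (Ctsc and Ctsl lower; 5.43%). Leaving out the 3-week library gave 9 of the 34 in hippocampus (1 higher, 8 lower; 16.3% of genes) and 17 in cortex (2 higher, 15 lower; 22.6%).

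Comparisons of exposure times inside 1 set of libraries called none of the 34. Exposed libraries of 8 to 20 weeks against control called 0.0% of 14465 genes with edgeR, with 676 genes and 3 of the 34 at an unadjusted p under 0.05. Those 3 were Ctss (0.28 ± 0.09), Ctsz (0.22 ± 0.09) and Atp6v1g2 (-0.26 ± 0.07), each with an edgeR adjusted p of 0.994. DESeq2 and limma-voom called none of the 34. Ctss and Ctsz were under all 8- to 20-week values in both controls, and Atp6v0e2, Atp6v1b2 and Atp6v1g2 above, which makes 5 of 34 where 3.79% of genes were under and 3.9% above. Between 3 weeks and 3 to 7 days the share of 14036 genes past the edgeR threshold was 0.0%, with 606 genes and 1 of the 34 at an unadjusted p under 0.05. That gene was Atp6v0b (0.41 ± 0.13, edgeR adjusted p = 0.999), with 397 and 500.5 CPM at 3 weeks, the highest value of each tissue. Over 8 to 20 weeks 0.286% of 13968 genes had a slope that passed (0.0143% upward, 0.272% downward), and none of the 34 did. Lamp1 was nearest, at -0.26 ± 0.07 per 10 weeks (edgeR adjusted p = 0.245).

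Any UPM exposure against control called none of 14865 genes with edgeR (272 genes and 1 of the 34, Ctss, at an unadjusted p under 0.05).

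**Figure D3:**
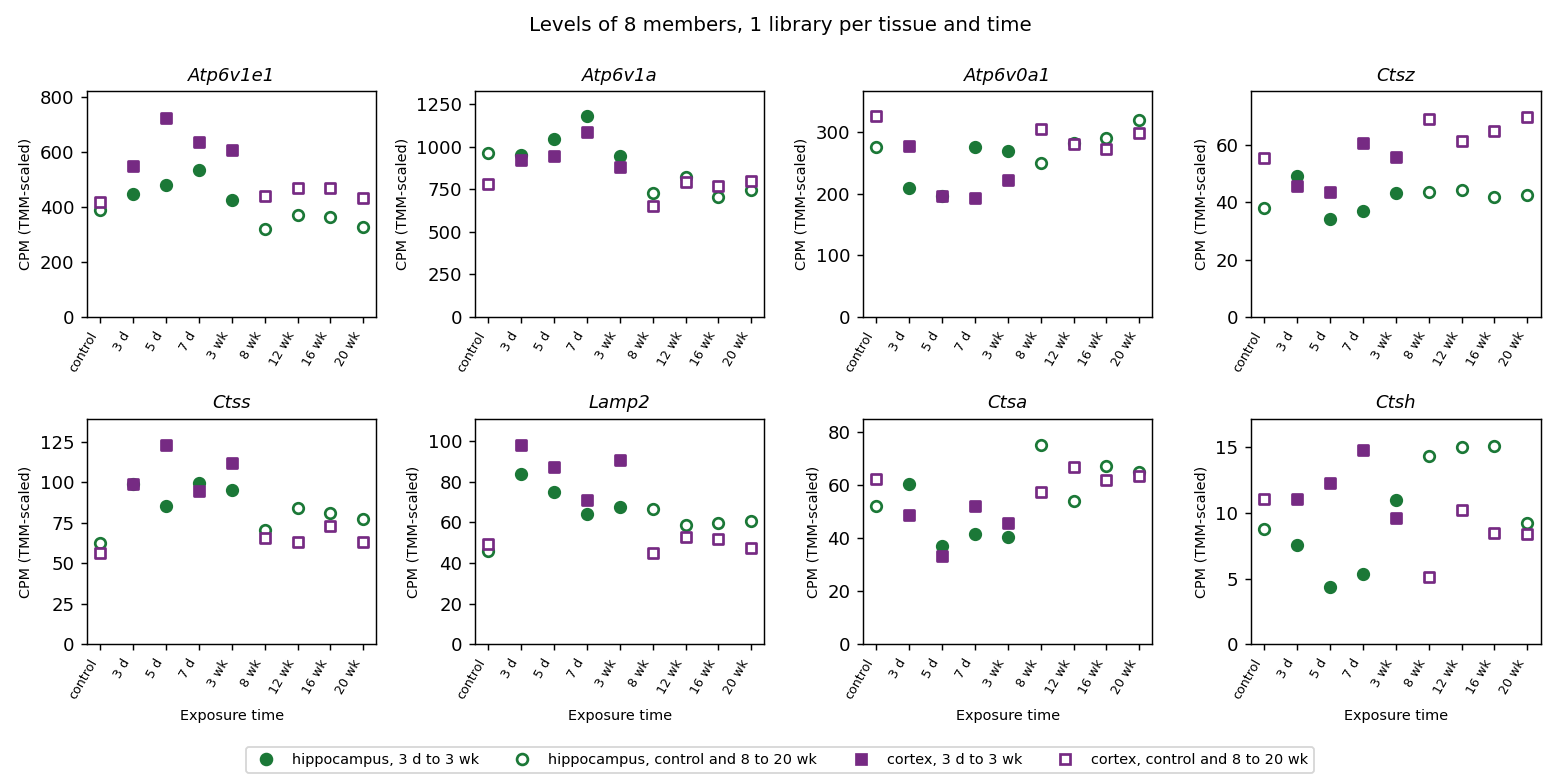
CPM (TMM-scaled, linear axis from 0) of 8 genes in each library by exposure time; circles are hippocampus, squares cortex, filled symbols the early set and open symbols the late set with the controls. Filled symbols of Atp6v1e1 and Ctss lie above the open ones of their tissue, and cortical squares of Atp6v1e1 lie above the circles of the same time at every time.

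Ctsh, an aminopeptidase of the papain family, had the smallest p in the test of tissue by exposure class (long-term minus short-term, hippocampus minus cortex). In hippocampus it had 7.53, 4.33 and 5.35 CPM at 3, 5 and 7 days, 11.03 CPM at 3 weeks and 14.4, 15.0, 15.1 and 9.25 CPM later, with 8.79 CPM in the control. The values in cortex were 11.1, 12.3 and 14.8 CPM, 9.63 CPM, then 5.14, 10.3, 8.45 and 8.37 CPM, with 11.1 CPM in the control. The 3- to 7-day values lay under all others of the tissue in hippocampus, while in cortex the 5- and 7-day values lay above all others and the 3-day value equalled the control to 3 digits. Long-term minus short-term was 1.17 ± 0.28 in hippocampus (edgeR adjusted p = 0.0609). The difference of the differences, 1.77 ± 0.36, did not pass with edgeR (adjusted p = 0.24; 0.0% of 14427 genes passed, 1124 at an unadjusted p under 0.05). DESeq2 called it (adjusted p = 0.0111) among 0.174% of genes. Its lowest count was 23, at 5 days in hippocampus.

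Between the tissues, with exposure time as a factor, 11 of the 34 genes were lower in hippocampus and 1 higher, against 9.26% and 7.6% of 14865 genes. The V1 sector held 6 of the 11 lower genes. On total counts alone 7 were lower and 1 higher, and over all genes the split turned from 1130 higher and 1377 lower to 1446 and 980. Atp6v1e1 averaged 407 CPM in hippocampus and 527 CPM in cortex (-0.36 ± 0.06, edgeR adjusted p = 0.000627), and hippocampus was lower at each of the 9 times. Also lower were Atp6v1h (-0.34 ± 0.07), Atp6v1g1 (-0.32 ± 0.07), Atp6v1d (-0.26 ± 0.07), Atp6v1c1 (-0.24 ± 0.07) and, near the threshold, Atp6v1b2 (-0.19 ± 0.06, edgeR adjusted p = 0.0459). In V0, Atp6v0b was lower (-0.29 ± 0.06) and Atp6v0e higher (0.27 ± 0.09, edgeR adjusted p = 0.0393). These calls varied in how they held: Atp6v0e passed in 9 of 19 alternatives and was lost without any 1 of 7 times (all but 5 and 7 days), Atp6v1b2 passed in 6, and the other 10 genes in 13 to 19. The catalytic Atp6v1a (0.08 ± 0.06), Atp6v0a1 and Atp6v0c (-0.13 ± 0.06) did not pass.

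Atp6ap1l, a gene related to the accessory subunit Atp6ap1 (chr13:90883433-90905355), showed the widest gap between the tissues. It had 0.892 to 6.165 CPM (5 to 50 counts) in the 9 hippocampal libraries and 7.03 to 24.0 CPM (58 to 182 counts) in the 9 cortical ones (-2.17 ± 0.35, edgeR adjusted p = 0.000269). No other of the 34 was separated without overlap, a gap found downward in 1.0% and upward in 1.01% of all genes. Within the early set the log2 fold change was -3.12 and within the late set -1.53. Atp6ap1 itself had -0.20 ± 0.07 (edgeR adjusted p = 0.0607) and Atp6ap2 averaged 258 and 318 CPM (-0.29 ± 0.08, adjusted p = 0.0135).

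Of the proteases, Ctsz and Ctsb were lower in hippocampus. Ctsz had 34.2 to 49.2 CPM in hippocampus and 43.6 to 69.7 CPM in cortex (-0.48 ± 0.09, edgeR adjusted p = 0.000956). In the late set hippocampus had 38.0 to 44.3 CPM and cortex 55.5 to 69.7 CPM (-0.61 ± 0.08, edgeR adjusted p = 0.000192), and in the early set the difference was -0.31 ± 0.17 (adjusted p = 0.403). The test of the difference between the sets did not pass (0.28 ± 0.17, edgeR adjusted p = 0.552). Ctsb averaged 169 and 204 CPM (-0.27 ± 0.07, edgeR adjusted p = 0.00953). Ctsd, Ctsl, Ctss, Lamp1 and Lamp2 did not pass, with log2 fold changes between -0.01 and 0.05.

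A fit without exposure time kept 4 of the 12 calls (Atp6ap1l, Atp6ap2, Ctsb and Ctsz; 12.2% of genes). Inside the early set alone 2 passed (Atp6ap1l and Atp6v1g1; 4.67%), and inside the late set 12 (20.1%), among them Atp6v0e and Ctsc upward. The test of whether the tissue difference itself differed between the sets called 0.0% of 14865 genes with edgeR (1636 genes and 8 of the 34 at an unadjusted p under 0.05; DESeq2 called 52 genes, none of the 34). Lamp2 was nearest (-0.49 ± 0.15, edgeR adjusted p = 0.268), with Ctsh, Ctsk and Ctsc after it. No microglia marker of 15 differed between the tissues. Of 13 neuron markers 5 were lower in hippocampus (Nefm, Snap25, Stmn2, Syt1 and Thy1) and Camk2a higher, and 5 of 8 astrocyte markers were higher. Of all genes 9.26% were lower and 7.6% higher. Choroid plexus marker sums were uneven between libraries. In hippocampus they were 175 to 8380 CPM at 3 to 7 days and 2520 to 5860 CPM at 8 to 20 weeks. In cortex they were 284 to 5530 and 256 to 457 CPM. The part of all these markers in the tissue differences was not tested. Other lysosomal genes showed 3 of 50 higher in hippocampus (Gaa, acid α-glucosidase, 0.42 ± 0.08, with Tpp1 and Laptm4a) and none lower. Of 23 pump regulators Rogdi (0.39 ± 0.08) and Tmem9 were higher, and of 6 cathepsin inhibitors Cst3 was higher (0.29 ± 0.08) and Cst6 lower (-1.48 ± 0.28).

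Ratios of 2 forms of a subunit within a library do not depend on the scaling. Their size depends on how well each 3′ end is primed, so only differences between libraries are read. The neuronal Atp6v1g2 over Atp6v1g1 was in hippocampus 5.97 in the control, 3.85, 4.61 and 5.26 at 3 to 7 days, 3.55 at 3 weeks and 4.08, 4.74, 4.34 and 4.97 at 8 to 20 weeks. In cortex it was 4.66, then 2.99, 2.85 and 2.75, then 1.99, then 3.80, 3.97, 4.15 and 3.83. Hippocampus was higher at 9 of 9 times (mean log2 difference 0.44 ± 0.31 SD; exact two-sided sign-flip permutation p = 0.00391, the smallest that 9 pairs allow, and 0.0117 adjusted over the 3 ratios). The cortical ratio was 1.99 to 2.99 in early libraries, under the 3.80 to 4.66 of late ones, and the hippocampal ranges overlapped.

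Atp6v0e2 over Atp6v0e was 4.04 to 9.22 in hippocampus and 4.78 to 12.6 in cortex, lower in hippocampus at 7 of 9 times (-0.37 ± 0.32 SD, exact permutation p = 0.0156, adjusted 0.0234). With the times unpaired the exact p was 0.0891. Atp6v0a1 over Atp6v0a2 was 3.91 to 7.61 in hippocampus and 4.65 to 7.44 in cortex and did not differ beyond its spread (0.01 ± 0.38 SD, exact permutation p = 0.93).

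**Figure D4:**
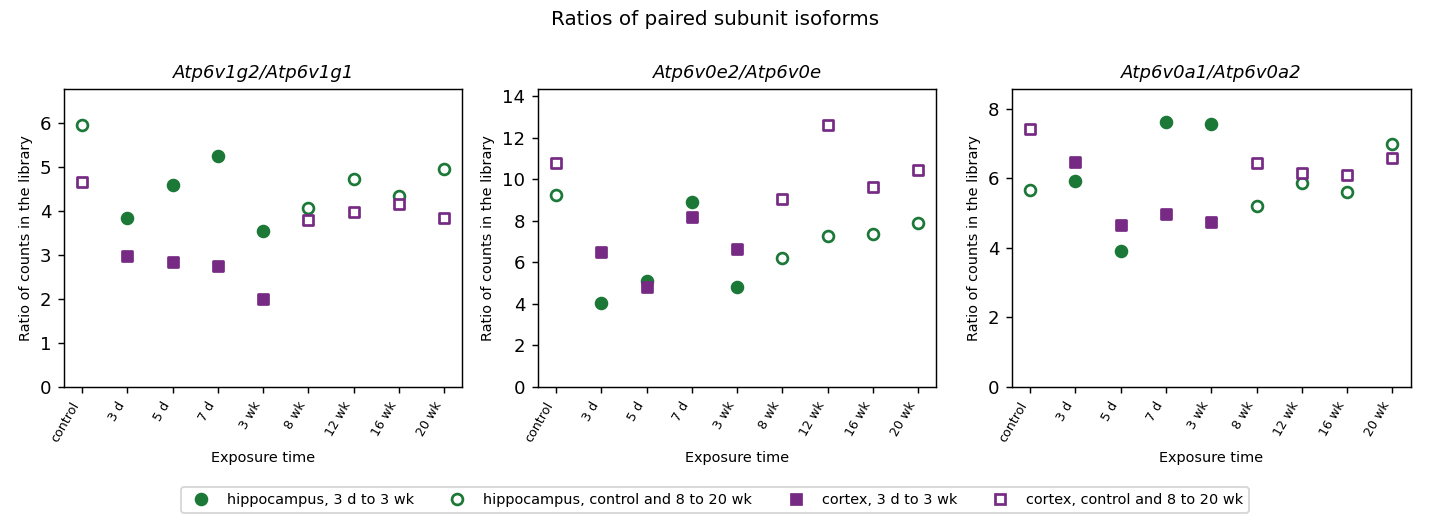
Ratio of the counts of paired subunit forms in each library (linear axis from 0) by exposure time; circles are hippocampus, squares cortex, filled symbols the early set and open symbols the late set with the controls. In the left panel each circle lies above the square of its time, and the filled squares, at 1.99 to 2.99, lie under all open ones.

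The sparse members carried little weight. Ctsk, the collagenase best known from bone (next to Ctss on chromosome 3), had 0 counts in hippocampus at 3 and 5 days, which allows up to 0.551 and 0.564 CPM (a limit of 3 counts, covering counting error only), and at most 5.41 CPM, in cortex at 3 weeks. Ctsc, the dipeptidyl peptidase that activates granule proteases of leukocytes, was highest at 5 days in both tissues, at 11.29 CPM in hippocampus and 10.96 CPM in cortex. Hippocampal Ctsc was nearly as high at 8 weeks (9.99 CPM) and 16 weeks (10.26 CPM). At 3 to 7 days the 5-day libraries also had the highest summed blood leukocyte markers, at 26.0 and 48.3 CPM. Most of these sums came from S100a8 (6.21 and 25.75 CPM) and S100a9 (18.6 and 21.8 CPM), while Cd3e and Nkg7 had 0 CPM there. The part of these transcripts in the Ctsc values was not tested. Ctso, a widely expressed papain-family member, ranged from 4.75 to 14.7 CPM, and Ctsf from 24.1 to 30.5 CPM with no call in any comparison.

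Antisense genes share the 3′ end of 6 members in GENCODE M21: Pdia6 with Atp6v1c2, Slc25a18 with Atp6v1e1, Pltp with Ctsa, Fdft1 with Ctsb, Nelfcd with Ctsz and Grtp1 with Lamp1. Whether strand was used in counting is not given in the sources used here, so reads of these pairs may not be told apart.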

How the data were processed

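Hippocampus and cortex RNA was sequenced from its polyadenylated 3′ ends with an oligo-dT primed kit, as 75 bp single-end reads, per the labels' protocols. The deposited files hold raw counts per symbol; for their making the submitters' processing notes list Bowtie2, bedtools, edgeR and mm10; versions, annotation, strand setting and the handling of reads with several hits are not given in the sources used here. Each file held 23282 lines and 23238 distinct symbols; 27 symbols that read as dates in 2 files were set back by line from the rest, and repeated symbols were summed. The 8-week files carry the number 1, not 8, in their header; the labels' time was used.

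From these counts CPM were computed, and genes were tested with edgeR 4.0.16 (R 4.3.3): TMM scaling, filterByExpr, quasi-likelihood F test, Benjamini-Hochberg adjustment over all genes, threshold 0.05. Isoform ratios used exact sign-flip permutations on log2 ratios of counts. On simulated data with 200 genes changed by a log2 fold change of 1, the test recovered 200 for the tissues (of 14276 genes, with 10 false calls) and 200 for 8 to 20 weeks against 3 to 7 days (of 13751, with 6). The changed genes had a mean of at least 50 counts, the dispersion was fixed, and the library sets did not differ otherwise. Recovery of smaller changes or in sparser genes, and false calls where the sets differ, were not tested. Alternatives were DESeq2 1.42.0, limma-voom (limma 3.58.1), RLE factors, total counts alone, Rn45s left out, no filter, a mean of 50 counts, each library or time left out, and a block by exposure time. Tissue fits within each set and fits without the 5-day libraries were added after seeing the data.

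With 5.43 to 8.97 M counts per library, 1 count equals 0.110 to 0.188 TMM-scaled CPM. Groups followed the labels. The members, gene lists and tests were chosen with earlier results of these data known. Values per library are given for members that passed in any comparison, the 3 with the smallest p in each, and a set of main subunits and proteases; other lysosomal genes and regulators are named where they passed or had the 3 smallest p, except 1 that is counted but not reported here. Gene positions are from GENCODE M21 and promoters from RefSeq, both on GRCm38, with none for Atp6ap1l, Atp6v0a2, Atp6v0c-ps2, Atp6v1b2, Atp6v1c1, Atp6v1g1, Atp6v1h, Ctsb and Ctsh.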

Additional observations from a re-analysis of the deposited data

Results flagged for a closer look

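In 10 of 68 sets of values (34 genes, the 5 long-term libraries of each tissue) the highest or lowest value stood apart from the others by Dixon's 95% criterion, where chance gives about 3.4. All 10 were the 3-week library, which belongs to the long-term class by its label and to the early set by its file header. The genes share the same libraries, so the 68 sets are not independent. The share of all genes that meet this criterion is not given here. For comparison, 19.8% of all genes had both 3-week libraries above every 8- to 20-week library of their tissue. In cortex the 3-week values were Atp6v1d at 696 CPM (the other long-term libraries 449 to 500.2), Atp6v1e1 at 606 CPM (433 to 469.9), Atp6v1f at 472 CPM (312 to 329), Atp6v1g1 at 132 CPM (77.8 to 78.2), Ctsl at 65.1 CPM (42.5 to 47.2), Ctss at 112 CPM (63.0 to 73.0) and Lamp2 at 90.4 CPM (44.9 to 52.7). In hippocampus they were Atp6v0c and its pseudogene Atp6v0c-ps2, each at 472 CPM (338 to 357), and Atp6v0d1 at 123 CPM (83.6 to 89.55). Every one of these was higher than the other long-term libraries of its tissue.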

How the results depend on the processing

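The count of 17 members at 8 to 20 weeks against 3 to 7 days stayed within 1.5 times under every alternative run (17 to 18 with a library left out). The genes behind that count changed on total counts alone. Atp6v0d1, Atp6v1g1, Ctsd and Lamp1 were lost there, and Atp6ap1, Atp6ap2, Atp6v0a2, Atp6v1b2, Atp6v1c1 and Ctsz newly passed as higher. For the tissues 12 members became 4 with no replicate block and 2 within the early set, and 9 to 12 with a time left out. Long-term against short-term, with 0 members as reported, gave 1 on total counts alone (Ctsh), 4 with DESeq2 and 0 to 9 with a library left out in hippocampus, and 2 with DESeq2 and 0 to 17 with a library left out in cortex, each highest without the 3-week library. Their difference gave 1 (Ctsh) with DESeq2. Short-term against control gave 1 on total counts alone (Atp6v0a1, lower), 5 with DESeq2, 1 without the 5-day libraries and 0 to 3 with a library left out, 0 without the control of hippocampus or that of cortex, and 3 with a replicate block. The remaining comparisons gave 0 throughout.

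The G2 to G1 ratio was 0.23 in the late set alone (exact permutation p = 0.0625) and 0.71 in the early set alone (0.125), sets too small to reach 0.05, and 0.38 to 0.49 with a time left out. The e2 to e ratio was -0.37 with no replicate block (exact p = 0.0891), -0.47 in the late set (0.0625), -0.24 in the early set (0.5) and -0.43 to -0.31 with a time left out. The a1 to a2 ratio changed sign to -0.06 without 7 days, -0.0704 without 3 weeks and -0.16 in the late set (-0.0704 to 0.0631 with a time left out). The cause of these was not tested.

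Deviations of the tissues at the same time correlated at -0.14 to 0.17 over genes, with 2 of 9 above 0.1. Those of different times correlated at -0.18 to 0.18, with 3 of 72 above 0.1. Of the 9 hippocampal libraries 4 were closest to their own time. All these correlations were weak, and whether exposure time pairs the tissues was not tested. Among single members 3141 values kept their side of the threshold with the same sign, or with a change of sign below the standard error. Another 61 no longer passed the threshold, 32 newly passed it, and 16 that passed in neither fit changed sign by more than the standard error. Pools without replicates, and sets that follow exposure time, limit every comparison.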
